A study of Mus musculus with 20 samples.

Results

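The genes described here are the mouse symbols of the sarcomeric and related myosin heavy chains (Myh followed by a number), myosin light chains (Myl followed by a number, and Mylpf), troponins C, I and T, and the actins Acta1, Acta2 and Actc1. The symbol pattern matched 38 of the 34620 symbols in the count tables, and the pattern itself uses no measured value, although the family was picked with earlier results of these data known. They were read in 6 polyA RNA libraries from brains of male, wild-type C57BL/6 mice that were frozen, sectioned and microdissected. The labels name hippocampal precursors (HP, 1 library), striatal precursors (SP, 1 library), young hippocampal CA pyramidal neurons (yCA, 1 library), young spiny neurons of the striatal lineage (yMSN, 1 library, "medial spiny" in the labels) and dorsal spiny neurons (dMSN, 2 libraries). No allele, agent or treatment is named for these 6 libraries, the labels give no age, and nothing says whether a library pools animals. The study set developmental stages and brain regions side by side for expression and DNA methylation.

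Muscle contracts when myosin heads pull on actin filaments, and calcium starts the movement by binding troponin C, which shifts troponin I and troponin T on the filament. Each of these proteins exists as several isoforms from separate genes. Embryonic and perinatal heavy chains (Myh3 and Myh8) come first in skeletal muscle and give way to adult fast or slow chains, cardiac isoforms serve the heart, and smooth muscle and non-muscle isoforms serve vessel walls and the cytoskeleton of nearly all cells, neurons included. Several members of the family have neighbours of the same family: in the RefSeq gene order Myh3, Myh2, Myh1, Myh4, Myh8 and Myh13 follow one another on chromosome 11, Myh6 lies next to Myh7 on chromosome 14, and Tnnt1 lies next to Tnni3 on chromosome 7.

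Promoter windows are shown for the 2 actins and the 2 early heavy chains, which rose together in the young libraries. Each is the 250 bases before the RefSeq start of the gene in GRCm38.p6, a build other than that of the counts, written 5′ to 3′ on the gene's strand. Capitals mark matches, on either strand, of the E-box CANNTG, the TATA box TATAAA and the CArG box, which has 2 C, 6 A or T and 2 G.
Acta1, chr8:123894776-123895025, minus strand: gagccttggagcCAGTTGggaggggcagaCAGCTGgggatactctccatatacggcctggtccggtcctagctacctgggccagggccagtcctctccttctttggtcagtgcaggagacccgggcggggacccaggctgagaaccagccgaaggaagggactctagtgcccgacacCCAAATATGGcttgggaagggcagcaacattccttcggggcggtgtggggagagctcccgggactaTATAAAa
Actc1, chr2:114052876-114053125, minus strand: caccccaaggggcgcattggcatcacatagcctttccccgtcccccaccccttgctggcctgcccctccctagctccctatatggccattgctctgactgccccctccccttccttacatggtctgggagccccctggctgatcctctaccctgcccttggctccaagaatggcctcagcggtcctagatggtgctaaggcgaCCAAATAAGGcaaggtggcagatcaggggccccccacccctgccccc
Myh3, chr11:67078050-67078299, plus strand: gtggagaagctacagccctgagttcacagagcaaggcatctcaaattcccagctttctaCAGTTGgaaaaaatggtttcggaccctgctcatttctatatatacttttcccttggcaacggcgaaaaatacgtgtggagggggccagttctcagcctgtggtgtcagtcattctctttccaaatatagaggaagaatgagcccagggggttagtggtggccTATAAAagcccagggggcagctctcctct
Myh8, chr11:67276874-67277123, plus strand: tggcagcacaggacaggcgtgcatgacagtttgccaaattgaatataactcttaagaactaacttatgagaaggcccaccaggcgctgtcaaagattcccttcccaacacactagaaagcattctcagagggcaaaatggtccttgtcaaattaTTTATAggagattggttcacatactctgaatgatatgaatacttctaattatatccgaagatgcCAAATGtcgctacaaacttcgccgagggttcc
The CArG match lay 73 to 64 bases before the start in Acta1 and 47 to 38 bases before it in Actc1, and no CArG match lay in the windows of Myh3 and Myh8. A TATA box match lay 29 to 24 bases before the start of Myh3, 96 to 91 bases before that of Myh8 and 7 to 2 bases before that of Acta1. Of the 38 members, 35 had a window in the RefSeq promoter table, with 42 windows in all, and Tnni2, Tnnt3 and Myh11 had none. A CArG match was present in 7 of the 42 member windows (Acta1, Actc1, Myh4, Myl3, Myl7, Myl9 and Myl6). It was present in 1.47% of all 32851 windows of that length. An E-box was present in 32 member windows, from 28 of the 35 members, and in 66.2% of all windows. TATAAA was present in 10 member windows and in 12.4% of all windows, and the MCAT motif CATTCC in 13 and in 12.6%. The MEF2 site, searched by its usual consensus, was present in 3 member windows (Myh1, Myh4 and Myh8) and in 2.92% of all windows. In Myh8 the MEF2 match lay 99 to 90 bases before the start and overlapped the TATA box match. These matches are letters in a window and were not measured as binding sites.

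The 6 libraries held 31282185 (HP), 35874646 (SP), 35418531 (yCA), 36969136 (yMSN), 152347673 (dMSN 1) and 145713678 (dMSN 2) reads assigned to genes. Levels are given as CPM, which are counts scaled to library totals adjusted by TMM. A gene with a count of 0 may stand at up to 3 counts, which is 0.0861 CPM in HP, 0.0755 in SP, 0.0771 CPM (yCA), 0.0690 CPM (yMSN), 0.0249 CPM (dMSN 1) and 0.0259 CPM (dMSN 2). CPM is not corrected for gene length, so levels are compared between libraries for 1 gene and not between genes. All intervals and floors cover counting error only, and p-values measure the spread between these libraries, since nothing says that the dMSN pair came from separate animals. In tissue pieces, fewer cells of a type and less RNA per cell cannot be told apart.

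The labels were checked against neuronal markers. All 6 medium spiny neuron markers rose from yMSN to dMSN, where 32.1% of all tested genes rose. Their summed level was 5118 CPM in dMSN 1 and 5058 CPM in dMSN 2. It was 103.95 CPM for yMSN and 98.4 for yCA, and 3 of the 6 were higher in yMSN than in yCA, so these markers did not set the young libraries apart. The 5 pyramidal neuron markers summed to 872 CPM (yCA), 415 CPM (yMSN), 392 CPM (dMSN 1) and 455 CPM (dMSN 2). The yMSN sum thus lay between those of the dMSN pair. Neurod6, a transcription factor gene of pyramidal neurons, stood at 396 CPM (yCA), 169 CPM (yMSN), 50.4 CPM (dMSN 1) and 93.9 CPM (dMSN 2). The list was mixed: from yMSN to dMSN 2 of the 5 rose (Wfs1 and Fibcd1) and 2 fell. Over all tested genes 32.1% rose and 35.4% fell. Wfs1 stood at 19.0 CPM (yCA), 20.3 CPM (yMSN), 183 CPM (dMSN 1) and 195 CPM (dMSN 2), so the dMSN sums mix markers that moved in opposite directions. The young libraries also held transcripts of tissues outside the brain: the 4 keratinised epithelium markers (Krt5, Krt14, Krt13 and Krt4) summed to 202 CPM (yCA) and 269 CPM (yMSN), against 2.06 to 5.48 CPM in the precursors and 0.0173 to 0.441 CPM in dMSN. The 7 bone and cartilage markers summed to 45.5 CPM in yCA and to 709 CPM in yMSN, against 454 to 547 CPM in the precursors, nearly all of it Col2a1, and at most 14.4 CPM in dMSN. The gene of thyroglobulin (Tg), the thyroid hormone precursor protein, stood at 76.6 CPM (yCA) and 0.967 CPM (yMSN). The part of these tissues in the results below was not tested.

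The 26 members of striated muscle type (embryonic, perinatal, fast, slow, cardiac and skeletal actin) took 0.841% of the assigned reads in yCA and 0.363% in yMSN. Their share was 0.00286% in HP, 0.00279% in SP, 0.0212% in dMSN 1 and 0.0200% in dMSN 2. The precursors were thus lowest, the young libraries highest and dMSN in between. In edgeR's quasi-likelihood test, with lineage and stage as terms, 26 of the 36 tested members rose from the precursor to the young stage, where 21.7% of all 19192 tested genes rose. None of the 36 fell at an adjusted p under 0.05, where 13.7% of all genes fell, and 2 were lower at an unadjusted p under 0.05. DESeq2 called 2 members lower (Myh9 and Myh10) and limma voom 1 (Myh10). Myl10 and Tnni3k were too low to be tested, with at most 0.0518 CPM and 0.328 CPM in any library. The median log2 difference of the 36 tested members was 5.40, or 4.83 with Myh1 set to its lower bound, beside 0.10 over all genes tested.

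The embryonic heavy chain Myh3, the first to appear in developing skeletal muscle, stood at 2.87 and 2.92 CPM in the HP and SP precursors, 996 CPM in yCA, 639 CPM in yMSN, and 4.95 and 9.85 CPM in dMSN 1 and 2. Young libraries were far above every other, and dMSN 2 was above dMSN 1. The rise from precursor to young was 8.10 ± 0.50 (SE, adjusted p = 0.00139) on the log2 scale. Myh8, the perinatal heavy chain, stood at 2.01 CPM (HP) and 2.32 CPM (SP) in the precursors, 1429.6 CPM (yCA) and 332 CPM (yMSN) in the young libraries, and 1.71 CPM (dMSN 1) and 2.13 CPM (dMSN 2) in the dorsal neurons. Its young values exceeded all others, while the dMSN pair lay close to the precursors. The log2 difference of young from precursor was 8.30 ± 0.69 (SE, adjusted p = 0.00221).

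Of the actins, Acta1 encodes the actin of adult skeletal muscle thin filaments and stood at 1459.9 CPM (yCA) and 499.9 CPM (yMSN) in the young libraries, against 1.61 and 2.06 CPM in HP and SP and 28.2 and 28.4 CPM in the dMSN pair. It rose by 8.85 ± 0.58 (SE, adjusted p = 0.00152), and the dMSN pair stood between the precursors and the young libraries. Actc1 encodes the cardiac actin, which developing skeletal muscle also makes, and stood at 4.77 and 4.43 CPM in the HP and SP precursors, 1066 CPM in yCA, 414 CPM in yMSN, and 0 and 0 CPM in dMSN 1 and 2. The precursors had 166 and 176 counts, the young libraries 41459 and 17985, and the dMSN pair none. Its rise from precursor to young was 7.17 ± 0.44 (SE, adjusted p = 0.00221). Acta1 and Actc1 have closely similar coding sequences. Reads that aligned to several places, 17.3% to 27.3% of all reads per library, were not counted, so a split of reads between them by the authors' counting is uncertain.

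All 9 adult fast members rose in the young libraries, with a median log2 difference of 8.27, or 7.72 with Myh1 at its bound. Tnnt3, the fast troponin T that ties troponin to tropomyosin, stood at 0.718 CPM (HP) and 0.956 CPM (SP) in the precursors, 465 CPM (yCA) and 147 CPM (yMSN) in the young libraries, and 0.607 CPM (dMSN 1) and 0.345 CPM (dMSN 2) in the dorsal neurons, and its log2 rise was 8.27 ± 0.63 (SE, adjusted p = 0.00192). Tnni2, the fast inhibitory troponin, stood at 244 CPM (yCA) and 82.5 CPM (yMSN) in the young libraries, against 0.517 and 0.378 CPM in HP and SP and 0.490 and 0.587 CPM in the dMSN pair, and it rose by 8.37 ± 0.34 (SE, adjusted p = 0.00102). These troponins were near 1 CPM or below in both precursors and in both dMSN libraries and were high in yCA and yMSN. The fast calcium sensor Tnnc2 had 1 count in each precursor library, 1459 and 631 counts in the young pair, and 0 and 4 counts in the dMSN pair. Its level was 37.5 CPM (yCA) and 14.5 CPM (yMSN). Myl1, a fast essential light chain, stood at 0.833 and 0.705 CPM in the HP and SP precursors, 541 CPM in yCA, 195 CPM in yMSN, and 0.441 and 0.293 CPM in dMSN 1 and 2. Mylpf, the fast regulatory light chain, stood at 2.53 CPM (HP) and 2.27 CPM (SP) in the precursors, 775 CPM (yCA) and 327 CPM (yMSN) in the young libraries, and 2.16 CPM (dMSN 1) and 1.44 CPM (dMSN 2) in the dorsal neurons. Both light chains rose, by 8.75 (adjusted p = 0.00109) and 7.72 (adjusted p = 0.00117), and in both genes the dMSN pair lay below the precursors.

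The 4 adult fast heavy chains did not exceed 3.65 CPM in any library. Myh4, the chain of the fastest fibres, had 0 counts in HP and 1 in SP and stood at 3.65 CPM (yCA), 0.299 CPM (yMSN), 0.989 CPM (dMSN 1) and 1.42 CPM (dMSN 2). Myh1 had a count of 0 in both precursors and stood at 2.08 CPM (yCA), 0.851 CPM (yMSN), 1.21 CPM (dMSN 1) and 2.49 CPM (dMSN 2). Against a floor of 3 counts per library, Myh1 was at least 18.1-fold higher in the young libraries than in the precursors. For Myh2, the chain of fast oxidative fibres, the counts were 2 in HP and 0 in SP and the levels 2.11 CPM (yCA), 0.736 CPM (yMSN), 1.18 CPM (dMSN 1) and 2.22 CPM (dMSN 2). Unlike the fast troponins and light chains, these 3 heavy chains had higher values in both dMSN libraries than in yMSN. Myh13, a chain known from extraocular muscle, reached 0.475 CPM at most. Myh1, Myh2 and Myh4 are near copies of one another, so the split of reads among them is uncertain, and the calls of Myh4 and Myh13 in young against precursor were lost under 3 and 6 of 15 alternatives.

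**Figure D1:**
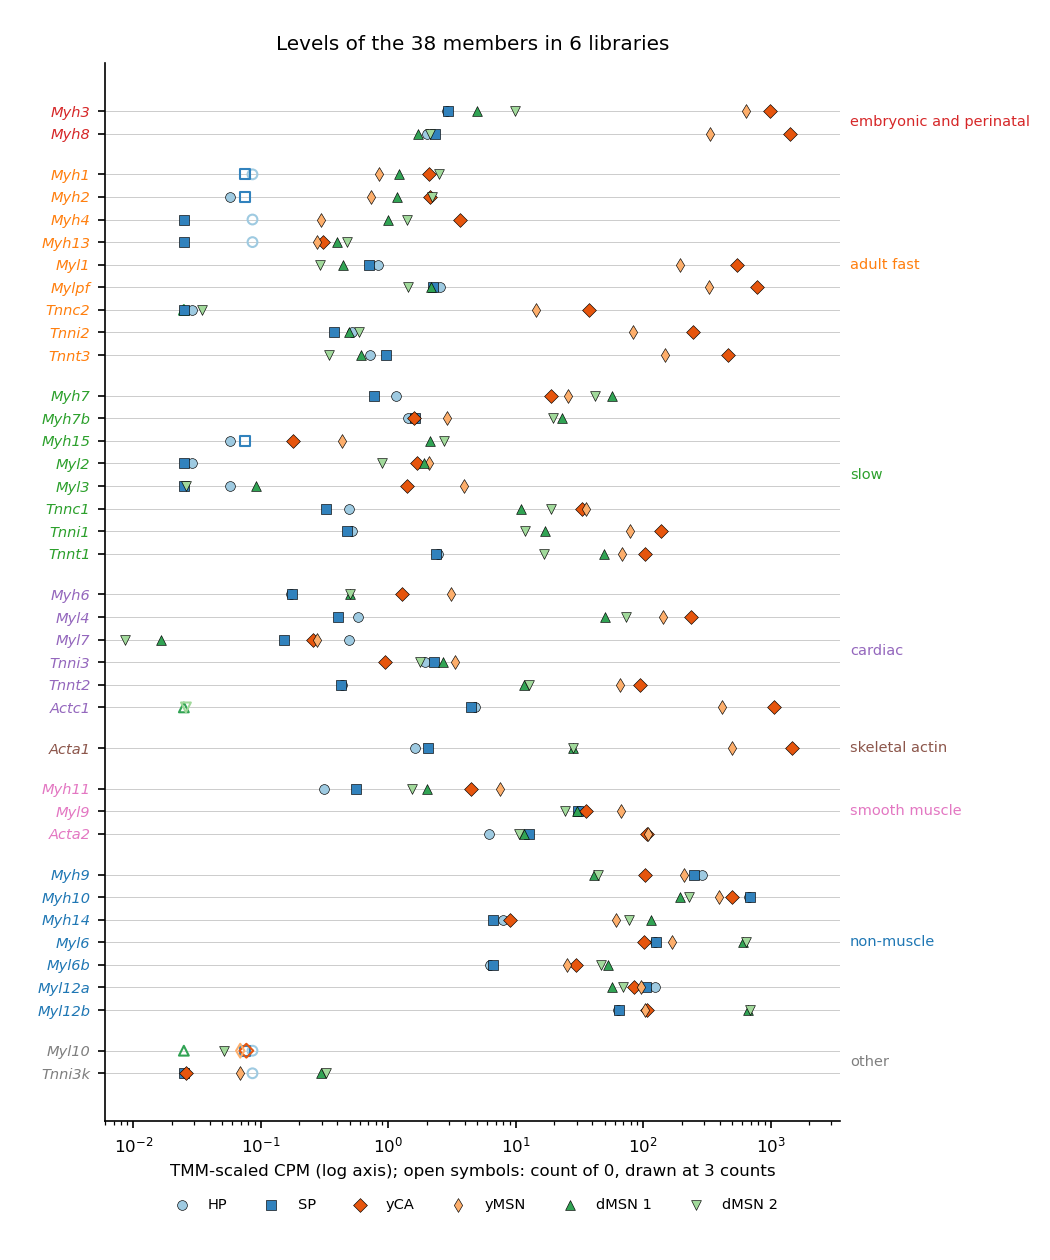
Level of each of the 38 members (listed down the axis, coloured by isoform class) in the 6 libraries, as TMM-scaled CPM on a log axis; 1 point is 1 library, and an open symbol is a count of 0 drawn at 3 counts. Myh3, Myh8, Acta1, Actc1 and the fast light chains and troponins are far higher in yCA and yMSN than in the other libraries, while Myh7, Myh7b, Myl6 and Myl12b are highest in dMSN.

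Among 8 slow members 6 rose from precursor to young, and the 2 that did not pass were Myh7b and Myh15, with a class median of 5.51. Tnni1, the slow troponin I, stood at 139 CPM (yCA) and 78.8 CPM (yMSN) in the young libraries, against 0.517 and 0.478 CPM in HP and SP and 16.9 and 11.9 CPM in the dMSN pair, and it rose by 7.72 ± 0.34 (SE, adjusted p = 0.00109). Tnnt1, the slow troponin T, stood at 2.44 and 2.37 CPM in the HP and SP precursors, 103 CPM in yCA, 68.6 CPM in yMSN, and 49.6 and 16.8 CPM in dMSN 1 and 2, with a log2 rise of 5.13 ± 0.61 (SE, adjusted p = 0.00432). Tnnc1 is the calcium sensor of slow and cardiac muscle and stood at 0.488 CPM (HP) and 0.327 CPM (SP) in the precursors, 33.0 CPM (yCA) and 35.5 CPM (yMSN) in the young libraries, and 10.9 CPM (dMSN 1) and 18.8 CPM (dMSN 2) in the dorsal neurons. For these 3 slow troponins the dMSN levels stayed well above the precursor levels. Myh7, the slow and cardiac beta heavy chain, stood at 19.0 CPM (yCA) and 25.5 CPM (yMSN) in the young libraries, against 1.15 and 0.780 CPM in HP and SP and 56.8 and 42.0 CPM in the dMSN pair, and it rose by 4.53 ± 0.35 (SE, adjusted p = 0.00196). Its order differed from that of Myh3 and the fast members, with both dMSN libraries above both young libraries.

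Myh7b, a slow-type heavy chain gene also known from neurons, stood at 1.44 and 1.61 CPM in the HP and SP precursors, 1.59 CPM in yCA, 2.90 CPM in yMSN, and 22.9 and 19.6 CPM in dMSN 1 and 2. The precursor and young values of Myh7b overlapped, with a log2 difference of 0.51 ± 0.30 (SE, adjusted p = 0.242), and the dMSN pair stood apart above them. Myh15, another slow-type chain, was under 0.437 CPM in the precursors and yCA, at 0.437 CPM in yMSN and at 2.14 and 2.73 CPM in dMSN. The slow and ventricular light chains were low: Myl2 (regulatory) did not pass 2.09 CPM and Myl3 (essential) did not pass 3.94 CPM in any library, both with at most 2 counts in a precursor library. In RefSeq Myh7b overlaps Trpc4ap, Myl2 overlaps Ccdc63, Mylpf overlaps Septin1, Myl4 overlaps Cdc27, Tnnt3 overlaps Prr33 and Myh6 overlaps Cmtm5, and the strand setting of the counting is not given in the sources used here. Reads counted as ambiguous were left out, so the counts of these members are uncertain where the genes overlap. How far an overlap changed them was not tested.

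Of the 6 cardiac members 4 rose (Actc1, Myl4, Tnnt2 and Myh6) and 2 did not pass (Myl7 and Tnni3). Myl4, the atrial and embryonic essential light chain, stood at 0.574 CPM (HP) and 0.403 CPM (SP) in the precursors, 235 CPM (yCA) and 143 CPM (yMSN) in the young libraries, and 50.1 CPM (dMSN 1) and 74.0 CPM (dMSN 2) in the dorsal neurons, with a rise of 8.58 ± 0.33 (SE, adjusted p = 0.00102). Tnnt2, the cardiac troponin T, which embryonic skeletal muscle also makes, stood at 94.4 CPM (yCA) and 65.7 CPM (yMSN) in the young libraries, against 0.431 and 0.428 CPM in HP and SP and 11.6 and 12.8 CPM in the dMSN pair, and it rose by 7.51 ± 0.26 (SE, adjusted p = 0.00102). Both were high in the young libraries, and in dMSN both stood well above the precursors. The members most tied to the heart stayed low: Myh6, the cardiac alpha heavy chain, stood at 1.29 CPM (yCA) and 3.08 CPM (yMSN), and Myl7, the atrial regulatory light chain, at 0.257 and 0.276 CPM. Tnni3, the cardiac troponin I, stood at 1.95 and 2.29 CPM in the HP and SP precursors, 0.951 CPM in yCA, 3.36 CPM in yMSN, and 2.69 and 1.78 CPM in dMSN 1 and 2. Its 6 values overlapped, with a log2 difference of young from precursor of -0.21 ± 0.52 (SE, adjusted p = 0.781).

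Heart markers outside the family were split in the young libraries: 5 of the 7 stood under 1 CPM in both, and 2 rose from the precursors. Nppa, the atrial natriuretic peptide, stood at 0.154 CPM (yCA) and 0.207 CPM (yMSN), and Gata4, a cardiac transcription factor, at 0.0514 and 0.0460 CPM. Nkx2-5, a transcription factor of heart development, rose to 7.69 CPM (yCA) and 4.14 CPM (yMSN), from 0.0574 and 0.0252 CPM in the precursors. Hand2, a transcription factor of the heart and other embryonic tissues, rose to 2.60 CPM (yCA) and 7.55 CPM (yMSN), from 0.0287 CPM in HP and a count of 0 in SP. Both had a count of 0 in the dMSN pair. Of the 7 cardiac markers 5 were tested, 2 rose and Tbx20 fell, where 21.7% of all tested genes rose and 13.7% fell. The list summed to 10.9 to 12.2 CPM in the young libraries, 1.06 to 8.004 CPM in the precursors and 0.216 to 0.806 CPM in dMSN. Sln and Mybpc3, also planned as heart markers, were counted in the muscle lists and are not among the 7. Sln stood at 89.9 CPM (yCA) and 27.2 CPM (yMSN), against 0.115 CPM (HP) and 0.101 CPM (SP). Mybpc3 stood at 6.43 CPM (yCA) and 1.73 CPM (yMSN), against 0.0574 CPM (HP) and 0.0503 CPM (SP).

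Of the 3 smooth muscle members Acta2 and Myh11 rose and Myl9 did not pass. Acta2, smooth muscle actin, stood at 6.20 CPM (HP) and 12.7 CPM (SP) in the precursors, 108 CPM (yCA) and 108 CPM (yMSN) in the young libraries, and 11.6 CPM (dMSN 1) and 10.7 CPM (dMSN 2) in the dorsal neurons, and it rose by 3.59 ± 0.29 (SE, adjusted p = 0.00214). Myh11, the smooth muscle heavy chain, stood at 4.45 CPM (yCA) and 7.55 CPM (yMSN) in the young libraries, against 0.316 and 0.554 CPM in HP and SP and 2.02 and 1.53 CPM in the dMSN pair, and Myl9, a regulatory light chain of smooth muscle and other cells, at 31.3 and 31.03 CPM in the HP and SP precursors, 35.8 CPM in yCA, 66.6 CPM in yMSN, and 30.0 and 24.3 CPM in dMSN 1 and 2. The young libraries were the highest for all 3, though for Myl9 the gap from yCA to HP was small. Of the 11 smooth muscle and pericyte markers 4 rose and 2 fell, where 21.7% of all tested genes rose and 13.7% fell. They summed to 337 CPM in yCA, 460 CPM in yMSN, 419 to 425 CPM in the precursors and 85.6 to 99.8 CPM in dMSN. Their part in these values was not tested.

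Every non-muscle member was detected in all 6 libraries, and the lowest value was 6.32 CPM (Myl6b, HP). Myh10 is the non-muscle heavy chain IIB, known from dividing and migrating neural cells, and stood at 679 CPM (HP) and 693 CPM (SP) in the precursors, 499 CPM (yCA) and 392 CPM (yMSN) in the young libraries, and 195 CPM (dMSN 1) and 229 CPM (dMSN 2) in the dorsal neurons. Myh9, the heavy chain IIA, stood at 103 CPM (yCA) and 209 CPM (yMSN) in the young libraries, against 289 and 251 CPM in HP and SP and 41.3 and 44.0 CPM in the dMSN pair. Both were highest in the precursors and lowest in dMSN, without passing the test between precursor and young (adjusted p = 0.0544 and 0.0792). Myh14, the heavy chain IIC, stood at 7.98 and 6.64 CPM in the HP and SP precursors, 9.05 CPM in yCA, 60.9 CPM in yMSN, and 116 and 77.7 CPM in dMSN 1 and 2. The precursors and yCA stood at 9.05 CPM or less, and yMSN and dMSN stood above them. Of the 7 non-muscle members only Myl6b, an essential light chain, and Myl12b, a regulatory light chain, passed as higher in the young stage, by 2.07 (adjusted p = 0.00264) and 0.71 (adjusted p = 0.0203) on the log2 scale. The median of the 7 was 0.06, beside 0.10 over all genes.

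These fits share their 2 residual degrees of freedom over all 6 libraries. Without yCA 26 members rose, without yMSN 26, and without the dMSN pair 24, and 23 of the 26 were called under all 15 alternatives.

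The next comparison set yMSN against yCA. Skeletal, fast and early members were lower in yMSN, while slow and cardiac members did not move as a block and the largest differences upward were in non-muscle and cardiac genes. With 1 library each there is no test, and log2 ratios (yMSN over yCA, prior count of 2) come with a 95% interval for counting error. Of the 33 members with at least 1 CPM in either library 11 were at least 2-fold lower in yMSN, where 2.55% of 15426 genes were, and 5 were at least 2-fold higher (Myl3, Myh6, Tnni3, Myh9 and Myh14), where 11.7% were. With at least 5 CPM required, 2 members were at least 2-fold higher. The 33 members had a median log2 ratio of -0.35, beside -0.01 over all genes.

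Myh8 had a log2 ratio of -2.11 (95% interval -2.13 to -2.08) and Myh3 one of -0.64 (95% interval -0.66 to -0.62), so the perinatal chain differed more than the embryonic one. All 8 fast members with at least 1 CPM in either library were at least 2-fold lower in yMSN, with a median of -1.46. Myh1, Myh2 and Myh4 met that limit in yCA only, so the limit favoured lower values in yMSN for them. Myh13, under the limit in both libraries, was at -0.14. The intervals of Myh1 (-1.89 to -0.71) and Myh2 (-2.15 to -0.91) included differences of less than 2-fold. The extreme was Myh4 at -3.41 (95% interval -4.55 to -2.79), and the 3 fast troponins and 2 light chains ranged from -1.66 (Tnnt3) to -1.24 (Mylpf). The actins were also lower, with Acta1 at -1.55 (95% interval -1.57 to -1.52) and Actc1 at -1.36 (95% interval -1.39 to -1.34). Slow members split, 5 higher and 2 lower of 7, with a median of 0.32. Myh7 was at 0.42 (95% interval 0.29 to 0.56) and Myl3 at 1.45 (95% interval 1.03 to 1.94), whereas Tnni1 was at -0.82 (95% interval -0.88 to -0.76) and Tnnt1 at -0.59 (95% interval -0.66 to -0.52). The intervals of Myl2 and Tnnc1 included 0.

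Cardiac members split as well. Myl4 at -0.72 (95% interval -0.76 to -0.67) and Tnnt2 at -0.52 (95% interval -0.59 to -0.45) were lower in yMSN, and the low-count genes Myh6 at 1.23 (95% interval 0.78 to 1.76) and Tnni3 at 1.77 (95% interval 1.29 to 2.38) were higher. In the smooth muscle class Myl9 was at 0.90 (95% interval 0.80 to 0.99) and Myh11 at 0.76 (95% interval 0.49 to 1.04), and Acta2 did not differ beyond counting error, at 0.01 (95% interval -0.05 to 0.07). The largest ratio of the family was that of Myh14, at 2.74 (95% interval 2.59 to 2.91). Myh9 was at 1.02 (95% interval 0.97 to 1.08), Myl6 at 0.75 (95% interval 0.69 to 0.80) and Myh10 at -0.35 (95% interval -0.38 to -0.32). When edgeR took its spread from the dMSN pair, 8 members were lower in yMSN (Myh4, Myh8, Tnnt3, Tnni2, Acta1, Myl1, Actc1 and Mylpf) and 2 higher (Myh14 and Myh9). Over all 19192 genes in that fit 1.45% were lower and 6.47% higher.

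**Figure D2:**
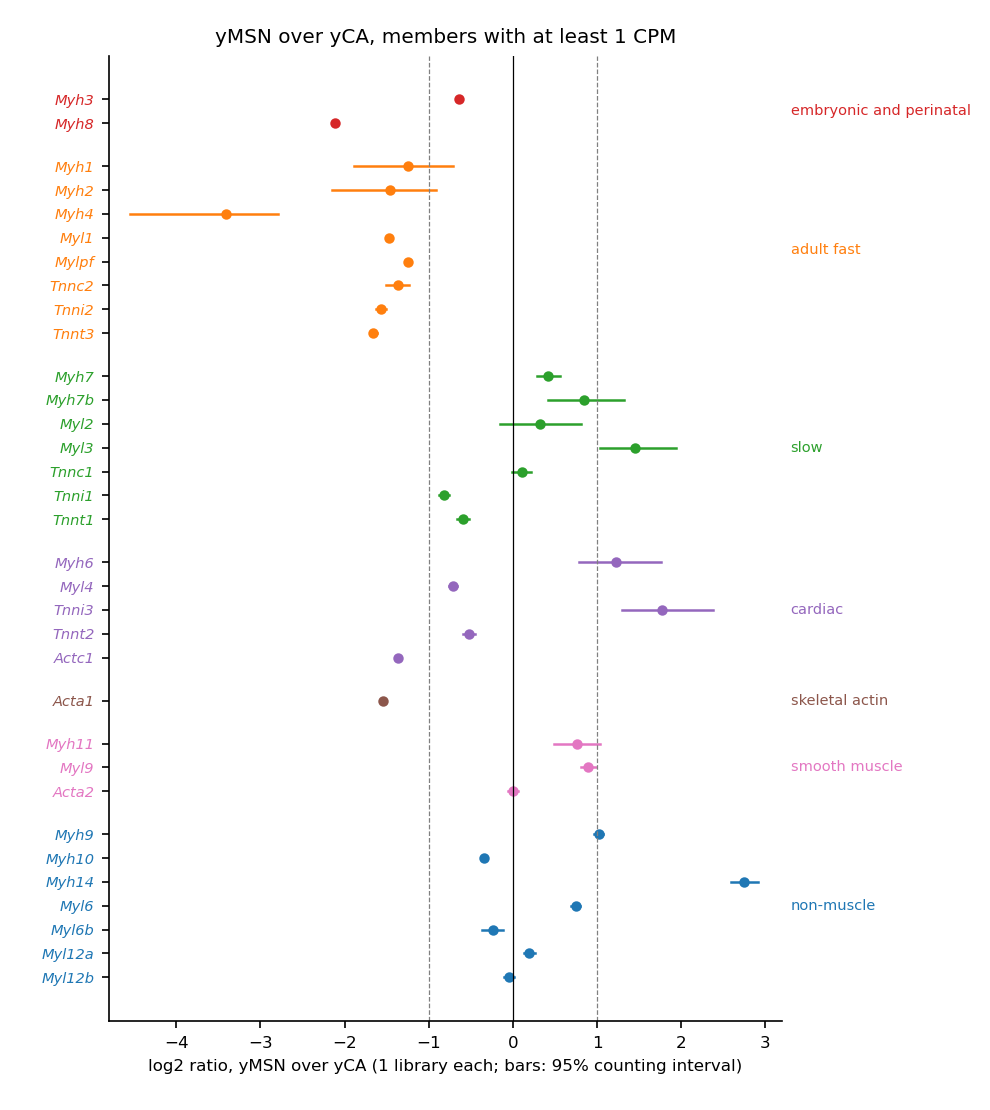
Log2 ratio of yMSN over yCA for the 33 members with at least 1 CPM in either library, by isoform class; points are ratios of 1 library each, bars the 95% counting interval, dashed lines a 2-fold difference. The points of all 8 fast members shown lie left of the 2-fold line, and Myh14 lies farthest to the right, at 2.74. Of these fast members Myh1, Myh2 and Myh4 reached 1 CPM in yCA only, and the bars of Myh1 and Myh2 cross the 2-fold line.

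Most other muscle genes were lower in yMSN too, and other-tissue markers were mostly higher. Over all genes with at least 1 CPM in either library the median log2 ratio was -0.01, so these lay nearly evenly on both sides of 0. All 33 sarcomere assembly genes with at least 1 CPM had log2 ratios below 0, with a median of -1.35, but Tpm3 was level, at -0.0014 with 124.6 and 124.4 CPM. All 14 genes of calcium release and the endplate (median -1.09) and all 6 skeletal muscle regulators (median -0.67) were lower. The 10 muscle metabolism genes included 9 that were lower, with a median of -1.60. Against this, 7 of 7 bone and cartilage markers, 4 of 4 olfactory epithelium markers and 3 of 4 keratinised epithelium markers were higher in yMSN, and both thyroid markers were lower. Of 10 smooth muscle and pericyte markers with at least 1 CPM, 7 were higher and 3 lower, with a median of 0.59. Omp, which marks mature olfactory neurons, was at 0.283 CPM (yCA) and 42.9 CPM (yMSN). How far such tissues in the dissected pieces enter the myosin, troponin and actin values was not tested.

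The use of isoforms within a protein was compared as the share of one gene in the summed reads of a pair of genes, which leaves gene length and library depth aside between libraries. Pairs were chosen after the values had been seen. Myh3 made up 41.1% (40.7 to 41.4) of the reads of Myh3 and Myh8 in yCA and 65.8% (65.4 to 66.3) in yMSN, with exact 95% binomial intervals in brackets. The slow troponins also took larger shares in yMSN than in yCA. Tnnt1 had 18.2% (17.7 to 18.7) of the Tnnt1 and Tnnt3 reads in yCA and 31.8% (30.8 to 32.7) in yMSN. Tnnc1 had 46.8% (44.9 to 48.7) of the Tnnc1 and Tnnc2 reads in yCA and 70.9% (69.0 to 72.9) in yMSN. Tnni1 had 36.2% (35.5 to 37.0) of the Tnni1 and Tnni2 reads in yCA and 48.9% (47.7 to 50.04) in yMSN. All 4 shares were higher in yMSN, and none of the intervals of these pairs overlapped.

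Within the isoform pairs, the slow troponins and the atrial Myl4 took nearly all reads of their pair in dMSN. Tnnt1 held 98.8% (98.5 to 99.1) of its pair in dMSN 1 and 97.98% (97.3 to 98.6) in dMSN 2, and Tnni1 held 97.2% (96.4 to 97.8) and 95.3% (94.1 to 96.3). All 1313 reads of the troponin C pair in dMSN 1 came from Tnnc1, as did 99.8% (99.5 to 100) of 2184 in dMSN 2. Myl4 took 99.1% (98.9 to 99.3) and 99.6% (99.4 to 99.7) of the Myl4 and Myl1 reads, against 42.3% (41.5 to 43.1) in yMSN. Members outside the pairs also had reads: cardiac Tnnt2 had 1396 and 1485 counts in dMSN beside 5964 and 1942 for Tnnt1. Myh3 took 74.3% (71.1 to 77.3) and 82.2% (80.1 to 84.2) of its pair. The actin pair went the other way. Actc1 took 74.8% (68.5 to 80.3) of the Actc1 and Acta1 reads in HP, 68.2% (62.2 to 73.9) in SP and 42.2% (41.9 to 42.5) in yCA. It took 45.3% (44.8 to 45.8) in yMSN and 0 of 3392 and 0 of 3290 in dMSN, with exact 95% upper limits of 0.109% and 0.112%. Precursor shares rested on few reads. Tnnc1 took 94.4% (72.7 to 99.9) of 18 reads in HP and 92.9% (66.1 to 99.8) of 14 in SP. Tnnt1 took 77.3% (68.3 to 84.7) of 110 and 71.2% (62.7 to 78.8) of 132. These shares of Tnnc1 and Tnnt1 lay above those of yCA and yMSN, though both Tnnc1 intervals overlapped that of yMSN. Tnni1 took 18 of 36 reads in HP and 19 of 34 in SP, and Myl4 took 20 of 49 and 16 of 44.

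**Figure D3:**
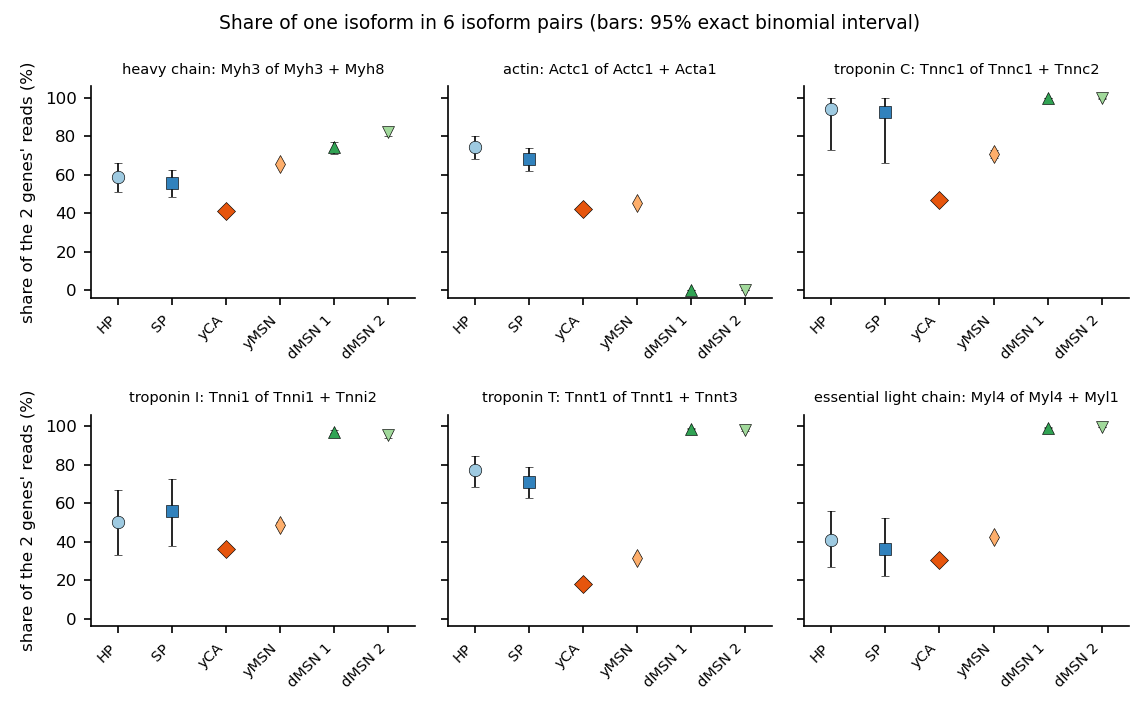
Share of one isoform in the reads of 6 isoform pairs, in percent, with 1 point for each library and bars for the exact 95% binomial interval. Tnnc1, Tnni1, Tnnt1 and Myl4 hold over 95% of their pair in both dMSN libraries, and Actc1 stands at 0% there.

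The last comparison asked which members were present in dMSN. Actc1 had no reads there, and the fast troponins and light chains did not exceed 2.16 CPM. Myh7, Myh7b, the slow troponins, Myl4, Tnnt2, Acta1 and the non-muscle members were all at 10.9 CPM or more. Of the 38 members 25 had at least 1 CPM in both dMSN libraries, where 53.0% of the 27159 genes with a count in any library did. These were Myh3 and Myh8, 3 of 9 fast members (Myh1, Myh2 and Mylpf), 6 of 8 slow members, 3 of 6 cardiac members (Myl4, Tnni3 and Tnnt2), Acta1, all 3 smooth muscle members and all 7 non-muscle members. Just outside the limit were Myh4 (0.989 and 1.42 CPM) and Myl2 (1.91 and 0.889 CPM), and just inside were Myh2 (1.18 and 2.22 CPM) and Myh1.

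Against yMSN, 8 members were higher in dMSN and 23 lower by edgeR's quasi-likelihood test, where 32.1% of all genes were higher and 35.4% lower. The median of the 36 tested members was -1.28 on the log2 scale, beside -0.11 over all genes. The spread came from the dMSN pair alone, with 1 residual degree of freedom, and the yMSN library was assumed to vary like it. Of the 31 calls 18 held under all 11 alternatives. With lineage and stage as terms, 3 members were higher without dMSN 1 and 3 without dMSN 2. Differences are given as dMSN minus yMSN on the log2 scale.

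Both early heavy chains and both striated actins fell. Myh8 was at 332 CPM in yMSN and at 1.92 ± 0.296 CPM (SD, n = 2) in dMSN, a log2 difference of -7.43 ± 0.25 (SE, adjusted p = 8.52e-10). Myh3 differed by -6.43 ± 0.34 (SE, adjusted p = 1.33e-08), and its dMSN pair, at 7.396 ± 3.47 CPM (SD, n = 2), spread more. Actc1 was at least 16288-fold lower in dMSN than in yMSN, against a floor of 3 counts per library. Only 2 of the 2082 genes with at least 100 CPM in yMSN had no count in either dMSN library (0.0961%), Actc1 and Ugt2a1, a glucuronosyltransferase gene that was named after its value was seen. Acta1, at 28.3 ± 0.140 CPM (SD, n = 2), stayed well above that, with a log2 difference of -4.14 ± 0.21 (SE, adjusted p = 9.02e-09).

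Of the 9 fast members 5 fell (Myl1, Mylpf, Tnnc2, Tnni2 and Tnnt3), Myh4 rose and 3 did not pass (Myh1, Myh2 and Myh13). Myl1, at 0.367 ± 0.104 CPM (SD, n = 2), differed from yMSN by -9.05 ± 0.27 (SE, adjusted p = 5.32e-10), and Tnnt3, at 0.476 ± 0.185 CPM (SD, n = 2), by -8.26 ± 0.29 (SE, adjusted p = 1.07e-09). The heavy chains went against the other fast members: Myh4 rose by 2.00 ± 0.60 (SE, adjusted p = 0.0105), from 0.299 CPM to 1.202 ± 0.301 CPM (SD, n = 2), though its call was lost under 4 of 11 alternatives.

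Slow members moved both ways, 3 higher and 4 lower of 8, with a median of -0.81. Myh7b rose by 2.87 ± 0.33 (SE, adjusted p = 9.57e-06), to 21.2 ± 2.36 CPM (SD, n = 2). Myh15 rose by 2.47 ± 0.56 (SE, adjusted p = 0.00194), and Myh7 by 0.95 ± 0.26 (SE, adjusted p = 0.00572), to 49.4 ± 10.5 CPM (SD, n = 2). The slow troponins fell, Tnni1 by 2.45 ± 0.23 (SE, adjusted p = 1.51e-06) and Tnnt1 by 1.05 ± 0.42 (SE, adjusted p = 0.0421), and Tnnc1 differed by -1.26 ± 0.30 (SE, adjusted p = 0.00255). Tnnt1 was uneven in dMSN, at 49.6 CPM in dMSN 1 and 16.8 CPM in dMSN 2, a ratio of 2.96, and its call was lost under 5 of 11 alternatives. The calls of Myh15, Myh7 and Tnnc1 were lost under 3, 2 and 1 of the 11.

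All 3 smooth muscle members and 5 of 6 cardiac members fell, and Tnni3 did not pass. The calls of Myh6 and Myl7 were each lost under 3 of 11 alternatives, and those of Myh11 and Myl9 under 2 each. Myl4 fell from 143 CPM to 62.0 ± 16.9 CPM (SD, n = 2), a log2 difference of -1.21 ± 0.23 (SE, adjusted p = 5.38e-04), and Tnnt2 to 12.2 ± 0.857 CPM (SD, n = 2), a difference of -2.43 ± 0.21 (SE, adjusted p = 6.79e-07). Among non-muscle members the light chains Myl12b, Myl6 and Myl6b and the heavy chain Myh14 rose, while Myh9, Myh10 and Myl12a fell. The call of Myh14 was lost under 5 of 11 alternatives, that of Myl12a under 3, and those of Myl6b and Myh10 under 2 each. Myl12b rose by 2.71 ± 0.24 (SE, adjusted p = 8.75e-07), to 675 ± 14.5 CPM (SD, n = 2), and Myl6 by 1.88 ± 0.23 (SE, adjusted p = 1.37e-05), to 624 ± 29.8 CPM (SD, n = 2). Myh9 differed by -2.29 ± 0.19 (SE, adjusted p = 5.79e-07). Myl12a and Myl12b are near-identical neighbours on chromosome 17, so the split of reads between them is uncertain.

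Against the precursors, 21 members were higher in dMSN and 7 lower, where 42.7% of all genes were higher and 35.0% lower, a comparison that uses the same dMSN pair as that with yMSN. The lower ones were Actc1, Myh10, Myh9, Myl1, Myl12a, Myl7 and Tnnt3. Of these the calls of Tnnt3, Myl1, Myl7 and Myl12a were lost under 5, 4, 3 and 1 of 12 alternatives. Myl7 had only 2 and 1 counts in the dMSN pair. Among the 21 higher members the call of Myh6 was lost under 5 of 12. Of the slow members 7 of 8 were higher, with a median of 5.03 beside 0.22 over all genes, and the one that did not pass was Myl3. Myh7 was higher by 5.70 ± 0.27 (SE, adjusted p = 1.09e-09), Tnnc1 by 5.21 ± 0.35 (SE, adjusted p = 2.99e-08), and Tnni1 by 4.85 ± 0.28 (SE, adjusted p = 6.88e-09). Of the cardiac members Myl4 was higher by 7.01 ± 0.29 (SE, adjusted p = 4.40e-10), with 0.574 and 0.403 CPM in the precursors. Acta1 was higher by 3.96 ± 0.21 (SE, adjusted p = 3.77e-09). Myh8 did not pass, at -0.17 ± 0.22 (SE, adjusted p = 0.502), and Myh3 was higher by 1.35 ± 0.30 (SE, adjusted p = 0.00108), a call lost under 2 of 12 alternatives. Actc1 was at least 181-fold lower in dMSN than in the precursors. Of the 28 calls 18 held under all 12 alternatives, and with lineage and stage as terms 3 members were lower without dMSN 1 and 4 without dMSN 2.

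Genes that work with these members were read from lists of sarcomere and muscle genes. Of 34 sarcomere assembly genes, which build the filaments and the Z disc, 31 rose and 1 fell from precursor to young, and 3 rose and 26 fell from yMSN to dMSN. Over all tested genes 21.7% rose and 13.7% fell in the first comparison, and 32.1% rose and 35.4% fell in the second. Ttn, the giant spring protein titin, stood at 1.87 CPM (HP) and 1.28 CPM (SP) in the precursors, 410.1 CPM (yCA) and 120.1 CPM (yMSN) in the young libraries, and 0.233 CPM (dMSN 1) and 0.457 CPM (dMSN 2) in the dorsal neurons. Actn2, the alpha-actinin of the Z disc, stood at 365 CPM (yCA) and 139.7 CPM (yMSN) in the young libraries, against 2.12 and 1.91 CPM in HP and SP and 58.1 and 52.8 CPM in the dMSN pair. In dMSN Ttn was below both precursors, whereas Actn2 was above them. Tpm1 and Tpm2, tropomyosins that lie along actin, stood at 473 and 529 CPM in yCA and 368 and 251 CPM in yMSN. Tpm1 was at 209 and 183 CPM in the precursors and at 343 and 387 CPM in dMSN, where it did not pass against yMSN. Tpm2 was at 32.6 and 30.98 CPM in the precursors, and from yMSN to dMSN it fell to 37.9 and 27.4 CPM.

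Of the 15 genes of calcium release and the endplate 13 rose from precursor to young, and 13 fell from yMSN to dMSN. Over all tested genes 21.7% rose in the first comparison and 35.4% fell in the second. Casq2, a calcium store protein, stood at 292 CPM (yCA) and 95.6 CPM (yMSN), against 0.316 in HP and 3.74 in dMSN 1. Ryr1, the calcium release channel of skeletal muscle, stood at 92.7 CPM in yCA, 45.1 in yMSN and 29.3 and 25.9 in dMSN. All 10 muscle metabolism genes rose in the young libraries, where 21.7% of all tested genes rose. Ckm, the muscle creatine kinase, stood at 0.373 and 0.277 CPM in the HP and SP precursors, 391 CPM in yCA, 103 CPM in yMSN, and 0.249 and 0.242 CPM in dMSN 1 and 2. It was under 1 CPM in every library but the young pair.

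The regulators that switch on skeletal muscle genes were present in the young libraries. Of 6 regulators 4 rose (Myod1, Myf6, Myog and Tmem8c) and Pax7 fell from precursor to young, and all 6 fell from yMSN to dMSN. Over all tested genes 21.7% rose and 13.7% fell in the first comparison, and 35.4% fell in the second. Myog, myogenin, stood at 0.804 CPM (HP) and 0.201 CPM (SP) in the precursors, 71.5 CPM (yCA) and 33.3 CPM (yMSN) in the young libraries, and 0.0166 CPM (dMSN 1) and 0 CPM (dMSN 2) in the dorsal neurons. Myod1 stood at 10.5 CPM (yCA) and 8.68 CPM (yMSN) in the young libraries, against 0.603 and 0.0252 CPM in HP and SP and 0.374 and 0.397 CPM in the dMSN pair. The list summed to 139 CPM in yCA, 73.2 CPM in yMSN and 1.16 to 1.70 CPM in dMSN, and to 44.8 to 49.8 CPM in the precursors, most of it Pax7 (42.5 CPM in HP and 48.7 in SP), which is also known from neural precursors of the dorsal brain. Counts in dMSN 2 were 0 for Myog, Myf6 and Pax7, and in dMSN 1 for Myf5. The part of skeletal muscle tissue in the levels of the young libraries was not tested.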

How the data were processed

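The authors deposited whole-number read counts per gene symbol, 1 table for each of the 6 polyA RNA libraries, with 34620 symbols and 5 summary lines. The submitters' processing notes name TopHat2 2.0.2, TopHat, Bowtie 1.0.0, HTSeq, edgeR, Bismark and methylKit and the builds mm9 and NCBIM37, without their roles, and the strand setting is not given in the sources used here. The summary lines were left out of totals and tests: reads without a gene were 5.34% to 9.81% of a library, ambiguous reads 1.38% to 2.01% and reads aligned to several places 17.3% to 27.3%. The 14 bisulfite samples were not analysed here.

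From the deposited counts, low genes were dropped by filterByExpr and libraries scaled by TMM (edgeR 4.0.16, limma 3.58.1, R 4.3.3). The quasi-likelihood F test was run on 19192 genes with Benjamini-Hochberg adjustment at 0.05, with lineage and stage as terms for young against precursor and with 1 mean per cell group for the 2 dMSN comparisons. Pairs of single libraries were given as log2 ratios with a prior count of 2 and an exact 95% interval for counting error (SciPy 1.17.1). Alternatives were RLE, upper quartile and no scaling, other filters, DESeq2 1.42.0, limma voom, robust moderation, other models and leaving libraries out. The steps were tested on simulated data. Levels per coding length had been planned, but no table of lengths was used here, so levels are not compared between genes.

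Every member could be named, and up to 4 genes of each other list, the highest by mean level in the young libraries, besides markers of other cell types. Members and lists were chosen with earlier results of these data known, and the isoform pairs after their values were seen. All 38 members were matched by symbol in RefSeq tables of GRCm38.p6, from which promoters and gene order come.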

Additional observations from a re-analysis of the deposited data

Results flagged for a closer look

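Tnni3 and Myl6 moved in opposite directions in the 2 lineages between the precursor and the young stage. The log2 ratio of Tnni3, the cardiac troponin I, was -0.997 from HP to yCA and 0.54 from SP to yMSN. The log2 ratio of Myl6, the non-muscle essential light chain, was -0.29 from HP to yCA and 0.41 from SP to yMSN. Each ratio rests on 1 library per group, and the difference between the lineages was not tested.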

How the results depend on the processing

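Over all genes, young against precursor gave 2387 to 4585 higher and 1203 to 3074 lower when 1 library was left out, the low ends without dMSN 1, and 2756 and 1665 without both dMSN libraries. No member was lower, but 2 were with RLE scaling, with DESeq2 and with 1 mean per cell group, 1 with limma voom and with at least 1 CPM in 2 libraries, and 0 to 1 when 1 library was left out. With lineage and stage as terms and 1 dMSN library left out, dMSN against yMSN gave 3239 to 3413 genes higher, 3370 to 3660 lower and 3 to 3 members higher, and dMSN against precursors gave 5068 to 5195 higher, 4195 to 4363 lower and 3 to 4 members lower. In yMSN against yCA, 2 members were at least 2-fold higher at 5 CPM or more, and 2 in edgeR.

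Members that changed sign in young against precursor were Myl7 (-0.92 to 0.86 when 1 library was left out), Tnni3 (-1.04 to 0.55) and Myl6 (-0.29 to 0.41, and -0.0675 with RLE scaling and with DESeq2). In dMSN against yMSN it was Tnni3, at 0.0212 with lineage and stage as terms without dMSN 2. In dMSN against precursors, with those terms, they were Myh8 (0.31, 0.43 without dMSN 1, 0.11 without dMSN 2), Tnnc2 (0.11, 1.03 without dMSN 1), Mylpf (0.22 without dMSN 2), Myl3 (-1.05 without dMSN 1), Tnni3 (-0.47, -0.80 without dMSN 1, -0.20 without dMSN 2) and Acta2 (-0.0064 without dMSN 1). Tnni3 also stood at -0.0500 with RLE scaling, -0.0482 with upper quartile scaling, -0.0504 with DESeq2, -0.0190 with at least 1 CPM in 2 libraries, -0.0168 without yCA and yMSN, and -0.0348 against SP alone, and Acta2 at -0.19 against SP alone. In yMSN against yCA, Acta2 was at -0.0843 with RLE scaling and Myl12b at 0.0507 with no scaling factor. The cause was not tested.

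The lineage term of young against precursor sets HP beside yCA and SP beside yMSN. Beyond that term no paired analysis was possible because HP, SP, yCA and yMSN have 1 library each, so the groups compared share fewer than 2 replicate numbers. The remaining members kept their direction under the alternatives run. The precursor and young groups have 1 library per lineage, which limits the tests, and members with under 3 counts in a library are limited by depth.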

Other observations

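Of the 10 muscle metabolism genes 5 fell from yMSN to dMSN and 2 rose, where 35.4% of all tested genes fell and 32.1% rose. The 2 that rose, named after their values were seen, were Cox6a2 and Cox7a1, muscle-type subunits of cytochrome c oxidase. Cox6a2 stood at 9.44 CPM in yMSN and at 27.9 and 17.5 CPM in dMSN, and Cox7a1 at 1.40 CPM in yMSN and at 5.28 and 3.14 CPM in dMSN. Pygm, the muscle glycogen phosphorylase, stood at 44.7 CPM in yMSN and at 74.7 and 55.6 CPM in dMSN, against 2.12 and 2.11 CPM in the precursors, and did not pass between yMSN and dMSN. Eno3, the muscle enolase, fell. It stood at 86.3 CPM in yMSN and at 9.43 and 6.55 CPM in dMSN, below 33.1 CPM in HP and 23.6 CPM in SP. Pgam2, the muscle phosphoglycerate mutase, stood at 21.8 CPM in yMSN and at 20.04 and 21.1 CPM in dMSN, and did not pass either.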
